A study of Homo sapiens with 12 samples.

Results

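The 10 chemokine ligand genes CXCL1, CXCL2, CXCL3, CXCL5, CXCL8, CXCL10, CXCL16, CX3CL1, CCL2 and CCL20 were described in 2 human cell lines cultured in a tumor-on-a-chip device, together or apart. They were chosen by gene name, and each of the 10 had a row among the 60612 genes of the HCCLM3 table and the 32507 genes of the LX2 table. The labels call HCCLM3 a hepatoma cell and LX2 a hepatic stellate cell, the matrix-forming pericyte of the liver, and give both as wild type (WT). The 4 groups were HCCLM3 with LX2, HCCLM3 alone, LX2 with HCCLM3 and LX2 alone, with 3 libraries each. Neither the time in culture nor the way co-cultured lines were separated ahead of RNA extraction is in the labels. Nothing there says that replicates were separate cultures, and the spread that p-values measure may therefore be technical.

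Chemokines are small secreted proteins that draw leukocytes along a gradient by way of receptors coupled to G proteins. CXC ligands that carry the residues glutamate, leucine and arginine before the first cysteines (CXCL1, CXCL2, CXCL3, CXCL5 and CXCL8, called ELR-positive here) act through CXCR2, and CXCL8 also through CXCR1, and attract neutrophils. CXCL10 is induced by interferons and acts on T cells through CXCR3, CCL2 draws monocytes through CCR2, CCL20 acts through CCR6, and CXCL16 and CX3CL1 are made as membrane-bound proteins that can be shed. In the liver, hepatocytes, stellate cells and resident macrophages are known to release such ligands under inflammatory signals, and the transcription factor NF-kB is a known inducer of most of the ELR-positive genes.

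The 5 ELR-positive genes lie in one cluster on chromosome 4, and their promoters are shown here because the genes differed in response to co-culture while sharing a short NF-kB-type element. The stretches run from 140 to 11 bases before the RefSeq start site (GRCh38.p14, 5′ to 3′ on the gene's strand). Capitals mark GGAATTTCC, the longest stretch that the 5 promoters have in common, and in CXCL8 also TGACTCA, a match to TGANTCA, the AP-1 element. The positions are chr4:73869253-73869382 on the plus strand for CXCL1, chr4:74099206-74099335 on the minus strand for CXCL2, chr4:74038700-74038829 on the minus strand for CXCL3, chr4:73998688-73998817 on the minus strand for CXCL5 and chr4:73740429-73740558 on the plus strand for CXCL8.
CXCL1: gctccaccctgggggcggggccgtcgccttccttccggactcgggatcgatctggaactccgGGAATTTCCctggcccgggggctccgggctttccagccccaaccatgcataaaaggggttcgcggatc
CXCL2: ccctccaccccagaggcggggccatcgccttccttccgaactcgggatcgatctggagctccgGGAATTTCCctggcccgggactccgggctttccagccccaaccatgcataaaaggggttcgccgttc
CXCL3: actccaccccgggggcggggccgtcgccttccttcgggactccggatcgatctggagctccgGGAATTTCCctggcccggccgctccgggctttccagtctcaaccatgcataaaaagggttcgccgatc
CXCL5: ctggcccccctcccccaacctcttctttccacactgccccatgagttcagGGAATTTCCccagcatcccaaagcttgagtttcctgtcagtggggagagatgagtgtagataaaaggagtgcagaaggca
CXCL8: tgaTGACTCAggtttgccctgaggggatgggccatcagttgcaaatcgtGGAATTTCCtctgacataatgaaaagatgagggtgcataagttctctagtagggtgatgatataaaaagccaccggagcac

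Of the 10 ligand genes, 7 had a promoter in the RefSeq table. GGAATTTCC, searched on both strands, began 78 bases before the start site in CXCL1 and CXCL3, 77 bases before it in CXCL2, 90 before it in CXCL5 and 91 before it in CXCL8. It was met on the other strand in CXCL10 and was not met in the window of CCL20. Of 35116 promoters of 300 bases, 0.461% held GGAATTTCC, a stretch that was taken from these promoters themselves. The kappa-B consensus, which overlaps it in CXCL1, CXCL2, CXCL3, CXCL5 and CXCL10, was met in 58.7% of promoters, and TGANTCA in 7.71%. Over the whole 300-base window, CXCL1 and CXCL3 were identical at 82.5% of aligned positions, CXCL2 and CXCL3 at 73.7% and CXCL1 and CXCL2 at 69.7%, while CXCL8 and each of the other 4 ELR-positive genes were identical at 41.8% to 42.9%, near the 41.9% to 44.7% of CXCL10 with CXCL1, CXCL2, CXCL3 and CXCL5. These matches are a description of letters and do not show that a factor bound there.

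CXCL10 is shown over 150 bases (chr4:76023588-76023737, minus strand, 240 to 91 bases before the start site) because its change in LX2 stands beside those of interferon pathway genes. Capitals mark GAAAGTGAAA, a match to the core of the interferon-stimulated response element, which was met in 3.57% of promoters, and the matches to the kappa-B consensus on either strand.
CXCL10: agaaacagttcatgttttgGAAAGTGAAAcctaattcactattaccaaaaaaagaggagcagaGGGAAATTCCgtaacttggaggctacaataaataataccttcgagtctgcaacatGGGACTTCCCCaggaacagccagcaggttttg

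The libraries held 65675929 to 68178411 counts in HCCLM3 with LX2, 68088914 to 77712308 in HCCLM3 alone, 64438991 to 69891842 in LX2 with HCCLM3 and 61836616 to 65314354 in LX2 alone. FPKM, which adjusts fragment counts for the length of the gene and the depth of the library, describes levels, CPM is the count scaled to the library total, and raw counts were tested with edgeR, with changes called at a Benjamini-Hochberg adjusted p under 0.05 over all genes tested. In HCCLM3, 1829 genes were called higher and 2095 lower with TMM scaling of the libraries. Library totals without TMM factors gave 2977 higher and 1039 lower, limma on log2(FPKM + 1) gave 3104 and 1106 and limma on log2(FPKM + 0.1) 3146 and 1110. Without TMM factors the median log2 fold change of all genes in HCCLM3 stood at 0.21, against 0.033 with TMM. Fold changes are given with TMM, and which scaling is nearer the truth was not tested. Some markers of the labelled cell types were missing: COL1A2, COL6A3 and SPARC, of 10 stellate cell and fibroblast markers, had no count in LX2 alone, and GPC3, of 9 hepatocyte and hepatoma markers, had none in HCCLM3. The 9 summed to 3271 to 4124 CPM in HCCLM3 with LX2 and 5290 to 5965 CPM in HCCLM3 alone, against 140 to 147 CPM in LX2 with HCCLM3 and 158 to 165 CPM in LX2 alone. In HCCLM3 nearly all of this sum was KRT8 and KRT18, which fell (log2 fold change -0.91 and -0.59; edgeR adjusted p = 0.00415 and 0.00395), while ALB and FGB rose (2.46 and 3.79; edgeR adjusted p = 0.00112 and 6.67e-06). The 10 stellate cell and fibroblast markers summed to 80.3 to 154 CPM in HCCLM3 with LX2 and 93.0 to 133 CPM in HCCLM3 alone, against 1054 to 1246 CPM in LX2 with HCCLM3 and 1008 to 1215 CPM in LX2 alone. In HCCLM3 most of this sum was COL6A3, LUM and VIM, none of which passed (edgeR adjusted p of 0.0830 to 0.984). Of 8 tested there, 1 was called higher and 0 lower (edgeR; 10.1% and 11.6% of all tested genes). This was COL3A1, with 300, 848 and 1011 counts with LX2, against 58, 39 and 112 counts alone (log2 fold change 3.30; edgeR adjusted p = 0.0106). Collagen counts differed between HCCLM3 libraries: COL1A2 had 0, 320 and 853 counts with LX2, against 0, 0 and 502 counts alone. HCCLM3 alone replicate 3, which held the 502, also had the most CXCL1, CCL2 and CXCL6 of the libraries alone (55, 23 and 19 counts). In counts and in CPM it had the least CXCL3 and CCL20 of them (48 and 66 counts). In LX2 alone CXCL1 and CXCL6 had no count, while CCL2 had 100, 104 and 74 counts. The part of such collagen-bearing RNA in these values was not tested. In such bulk libraries fewer cells of a type and less RNA per cell cannot be told apart.

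In HCCLM3, 4 of the 5 ELR-positive ligands rose with LX2, led in level by CXCL5 and in fold by CXCL2. Of the 10 genes, 8 passed the filter on low counts, and of these 4 rose and 0 fell (CXCL2, CXCL3, CXCL5 and CXCL8; edgeR quasi-likelihood test), where 21.7% of all tested genes were called, 10.1% as higher and 11.6% as lower. In CPM, 7 of the 8 were higher in every co-cultured library than in every library alone and 0 lower, where 32.3% of tested genes were higher in this way and 12.1% lower. At an unadjusted p under 0.05, 7 of the 8 were higher and 0 lower, and with DESeq2 7 passed as higher and 0 as lower, and with limma on log2(FPKM + 1) 6 and 0. Over all genes, 6496 of 18045 had an unadjusted p under 0.05 in edgeR, and DESeq2 called 4989 and limma 4210. CXCL10 and CCL2 were too low to test. CXCL1 passed the filter only through its level in co-culture, so that it was higher is in part a property of the filter. The summed level of the 5 ELR-positive genes was 66.9 ± 2.56 FPKM in HCCLM3 with LX2 and 30.6 ± 2.75 FPKM in HCCLM3 alone (SD, n = 3 each).

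CXCL5 (ENSG00000163735, chromosome 4, 73995642 to 73998677, minus strand in GRCh38), a neutrophil attractant, was the most abundant of the 10 ligands in HCCLM3. It had 59.6, 54.4 and 57.1 FPKM in the 3 libraries of HCCLM3 with LX2, against 25.2, 30.5 and 26.5 FPKM in HCCLM3 alone. The groups did not overlap, and the lowest co-cultured library stood well above the highest library alone. The log2 fold change was 0.89 (SE 0.092; edgeR adjusted p = 0.00170), and the call held in each of 6 fits that left out a single library. CXCL5 made up 67.9% of the summed FPKM of the 10 ligands in HCCLM3 with LX2 and 62.9% in HCCLM3 alone.

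CXCL2 (ENSG00000081041, chromosome 4, 74097040 to 74099195, minus strand), a CXCR2 ligand also known as MIP-2 alpha, had the largest called change of the ligands in HCCLM3. It had 2.94, 4.19 and 4.34 FPKM in HCCLM3 with LX2 (324, 478 and 484 counts), against 0.805, 0.774 and 0.804 FPKM in HCCLM3 alone (107, 99 and 93 counts). The libraries alone lay within a narrow band and all co-cultured libraries above it. The log2 fold change was 2.07 (SE 0.20; edgeR adjusted p = 0.00142), and this call too held in each of the 6 fits.

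CXCL3 (ENSG00000163734, chromosome 4, 74036589 to 74038807, minus strand), the third of the closely related CXCR2 ligands, had 2.48, 1.73 and 2.03 FPKM in HCCLM3 with LX2, against 0.853, 0.513 and 0.255 FPKM in HCCLM3 alone. The groups did not overlap, but the libraries alone were far apart. Its log2 fold change was 1.75 (SE 0.43; edgeR adjusted p = 0.0292). The call was lost without HCCLM3 alone replicate 2 and without replicate 1, 2 or 3 of HCCLM3 with LX2 (edgeR adjusted p of 0.0584 to 0.0880 in these 4 fits).

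CXCL8 (ENSG00000169429, chromosome 4, 73740541 to 73743716, plus strand), which encodes interleukin 8, had 2.76, 2.81 and 2.51 FPKM in HCCLM3 with LX2, against 1.56, 1.74 and 1.63 FPKM in HCCLM3 alone. The groups did not overlap, yet the change was the smallest of the called ones. The log2 fold change was 0.54 (SE 0.13; edgeR adjusted p = 0.0309), and the call was lost in each of the 6 fits that left out 1 library, with edgeR adjusted p of 0.0575 to 0.0970.

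CXCL1 (ENSG00000163739, chromosome 4, 73869393 to 73871308, plus strand), a CXCR2 ligand known as GRO alpha, had 141, 110 and 168 counts in HCCLM3 with LX2, against 8, 19 and 55 counts in HCCLM3 alone. These correspond to 1.31, 0.983 and 1.54 FPKM in co-culture, against 0.0579, 0.152 and 0.487 FPKM alone. With 8 counts, HCCLM3 alone replicate 1 lay under the minimum count of 10, so CXCL1 passed the filter only through co-culture. The groups did not overlap, and the third library alone stood apart from the other two. The log2 fold change of 2.28 (SE 0.68) did not pass in edgeR (adjusted p = 0.0557), while it passed with DESeq2 (adjusted p = 0.00499), on library totals (edgeR adjusted p = 0.0461), with limma on log2(FPKM + 1) (limma adjusted p = 0.0105) and without HCCLM3 alone replicate 3 (log2 fold change 3.38, edgeR adjusted p = 0.0140).

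**Figure D1:**
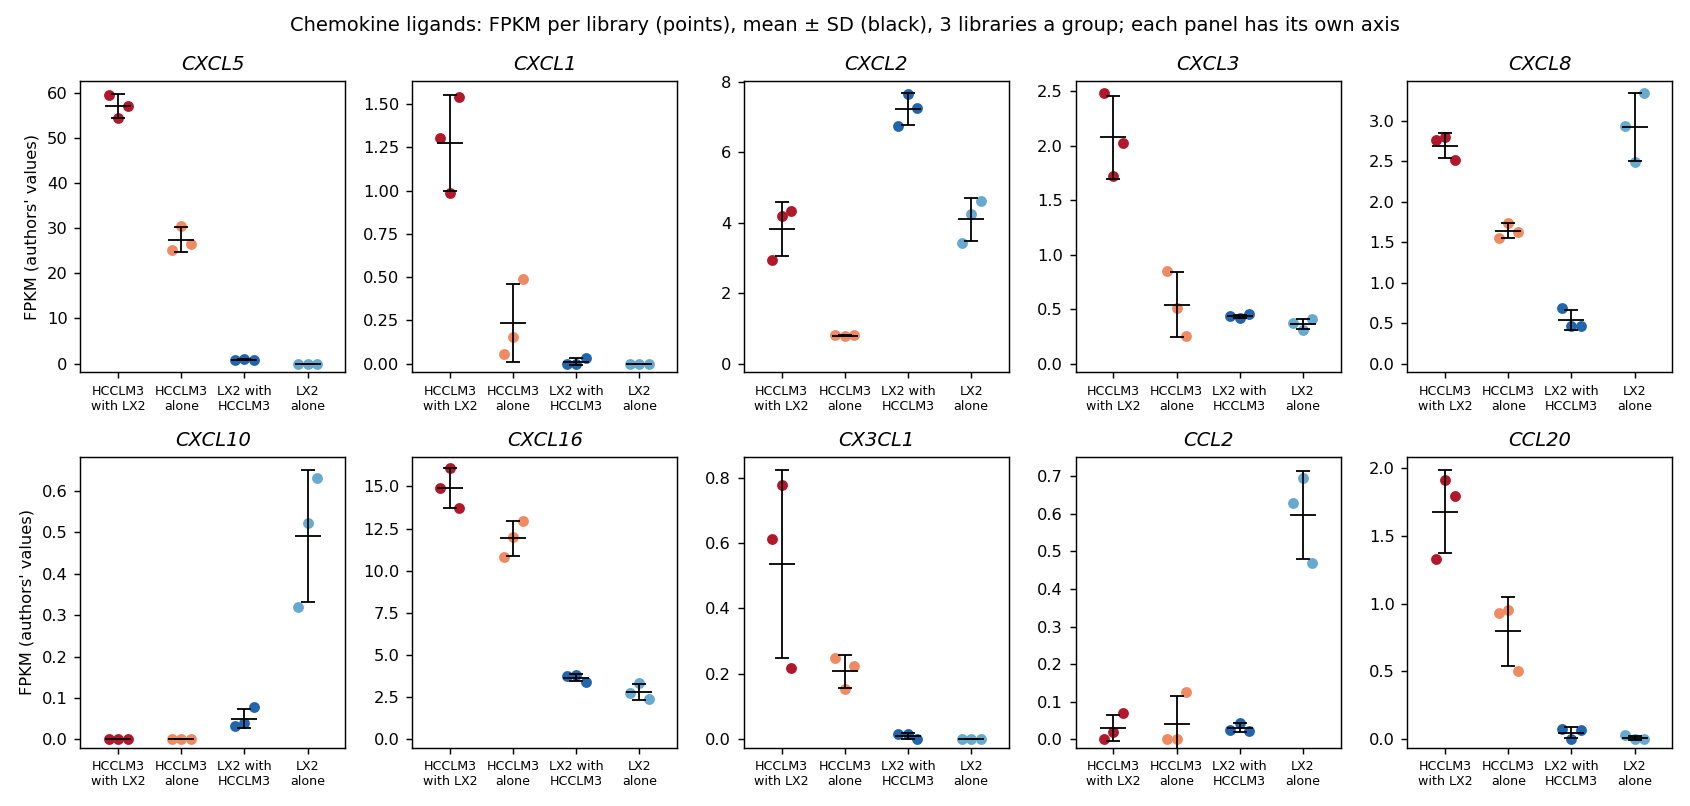
FPKM of the 10 chemokine ligands in each of the 12 libraries, with the groups HCCLM3 with LX2, HCCLM3 alone, LX2 with HCCLM3 and LX2 alone from left to right and a linear axis of its own in each panel; points are libraries and black marks the mean ± SD (n = 3). CXCL5 stood at 57.0 ± 2.61 FPKM in HCCLM3 with LX2 and 27.4 ± 2.79 FPKM in HCCLM3 alone, while CXCL8, CXCL10 and CCL2 were lower in LX2 with HCCLM3 than in LX2 alone.

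The membrane-bound ligands and CC ligands gave no call in HCCLM3. CXCL16 (ENSG00000161921, chromosome 17, 4733531 to 4739928, minus strand), a ligand of CXCR6 that also acts as a scavenger receptor, was second in level, with 14.9, 16.1 and 13.7 FPKM in HCCLM3 with LX2, against 11.9 ± 1.04 FPKM (SD, n = 3) and at most 12.9 FPKM in HCCLM3 alone. The groups lay close but did not overlap. With TMM its log2 fold change was 0.16 (SE 0.096; edgeR adjusted p = 0.288). The gene overlaps MED11 on the other strand, and since no source used here says whether counting used strand, reads of that overlap cannot be told apart.

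CX3CL1 (ENSG00000006210, chromosome 16, 57372477 to 57385044, plus strand), which encodes fractalkine, had 287, 378 and 105 counts in HCCLM3 with LX2, against 138, 82 and 109 counts in HCCLM3 alone. Of the co-cultured libraries, 2 stood above all libraries alone and the third stood among them. Its log2 fold change was 1.19 (SE 0.46; edgeR adjusted p = 0.115), and without HCCLM3 with LX2 replicate 3 it was 1.56 (edgeR adjusted p = 0.0294). With DESeq2 on all libraries its adjusted p was 0.0482.

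CCL20 (ENSG00000115009, chromosome 2, 227805739 to 227817556, plus strand), which draws CCR6-bearing T cells and dendritic cells, had 1.33, 1.91 and 1.79 FPKM in HCCLM3 with LX2, against 0.927, 0.954 and 0.505 FPKM in HCCLM3 alone. The groups did not overlap, and the log2 fold change was 0.89 (SE 0.30; edgeR adjusted p = 0.0809; DESeq2 adjusted p = 0.0474). It also passed on library totals (edgeR adjusted p = 0.0462) and with limma on log2(FPKM + 1) (limma adjusted p = 0.0310). CCL2 (ENSG00000108691, chromosome 17, 34255218 to 34257203, plus strand), the monocyte attractant MCP-1, had 0, 4 and 13 counts in HCCLM3 with LX2, against 0, 0 and 23 counts in HCCLM3 alone. CXCL10 (ENSG00000169245, chromosome 4, 76021118 to 76023497, minus strand) had no count in any of the 6 HCCLM3 libraries, which allows up to 0.0386 to 0.0457 CPM per library (3 counts).

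In LX2, CXCL8, CXCL10 and CCL2 fell with co-culture, while CXCL2 rose and CXCL5 was counted at a low level with HCCLM3 and not without it. Of the 10 genes, 7 passed the filter, and of these 2 rose (CXCL2 and CXCL5) and 3 fell (CXCL8, CXCL10 and CCL2; edgeR), where 31.9% of all tested genes were called, 15.4% as higher and 16.6% as lower. In CPM, 4 of the 7 were higher in every co-cultured library than in every library alone and 3 lower, where 26.2% of tested genes were higher in this way and 22.1% lower. CXCL10 and CCL2 passed the filter only through their level alone and CXCL5 only through its level in co-culture, so that they differed is in part a property of the filter. Each of the 5 calls held in all 6 fits that left out a library and under every other setting tried.

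CXCL8 had 0.682, 0.464 and 0.462 FPKM in LX2 with HCCLM3 (119, 87 and 87 counts), against 2.94, 2.50 and 3.34 FPKM in LX2 alone (515, 413 and 581 counts). Every co-cultured library was far below every library alone. The log2 fold change was -2.46 (SE 0.21; edgeR adjusted p = 0.000298). In LX2 alone CXCL8 was second among the 10 ligands, its range overlapping that of CXCL16, and in LX2 with HCCLM3 it came after CXCL5.

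CCL2 fell most. It had 5, 8 and 4 counts in LX2 with HCCLM3, against 100, 104 and 74 counts in LX2 alone, or 0.0306 ± 0.0116 FPKM against 0.598 ± 0.117 FPKM (SD, n = 3 each). Over the groups it was 17.2-fold lower in LX2 with HCCLM3 (ratio of counts per library total 0.0580, exact 95% interval 0.0333 to 0.0946, counting error only; log2 fold change -4.11, SE 0.36; edgeR adjusted p = 0.000336). CXCL10 had 3, 4 and 8 counts in LX2 with HCCLM3, against 30, 46 and 58 counts in LX2 alone, with a ratio of 0.106 (exact 95% interval 0.0578 to 0.182; log2 fold change -3.24, SE 0.50; edgeR adjusted p = 0.00369). Neither gene's groups overlapped. CXCL10 overlaps ART3 on the other strand, with the same limit as for CXCL16.

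CXCL2 was the most abundant of the 10 ligands in LX2, with 6.74, 7.66 and 7.25 FPKM in LX2 with HCCLM3, against 3.43, 4.23 and 4.62 FPKM in LX2 alone. The groups did not overlap, and the log2 fold change was 0.79 (SE 0.13; edgeR adjusted p = 0.00504). CXCL3 did not pass, with 76, 79 and 85 counts in LX2 with HCCLM3, against 66, 52 and 71 counts in LX2 alone (log2 fold change 0.24, SE 0.19; edgeR adjusted p = 0.395). CXCL16 had 3.75, 3.82 and 3.40 FPKM in LX2 with HCCLM3, against 2.76, 3.31 and 2.39 FPKM in LX2 alone, close but without overlap, and did not pass (log2 fold change 0.35, SE 0.14; edgeR adjusted p = 0.103). It passed without LX2 alone replicate 2 (edgeR adjusted p = 0.0373).

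CXCL5 had 138, 193 and 176 counts in LX2 with HCCLM3, against 0 in each of the 3 libraries of LX2 alone, which puts the summed level at least 160-fold higher with HCCLM3 (taking 3 counts over the 3 libraries alone as the floor; edgeR adjusted p = 0.000270). The level reached was 0.856 ± 0.114 FPKM (SD, n = 3). The remaining 3 ligands were at the edge of detection in LX2. CCL20 had 9, 0 and 12 counts in co-culture, against 4, 0 and 0 counts alone, CX3CL1 8, 8 and 0 against 0 in each, and CXCL1 0, 0 and 4 against 0 in each.

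**Figure D2:**
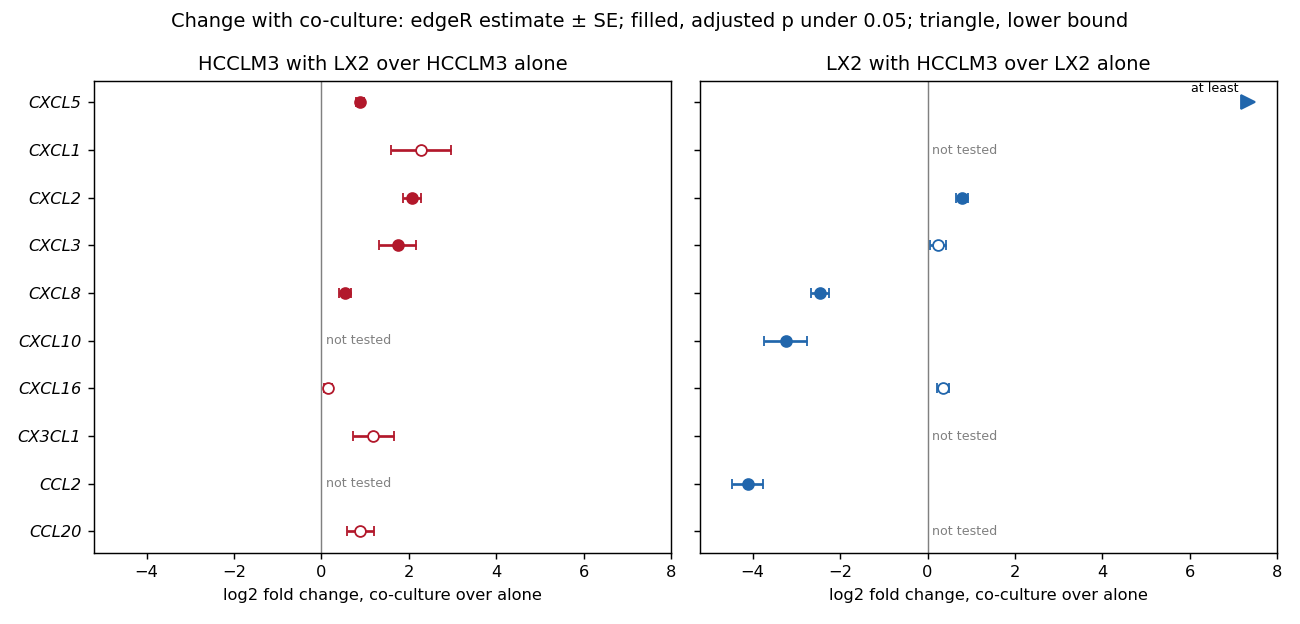
Change of each ligand with co-culture over growth alone, as log2 fold change ± SE from edgeR, in HCCLM3 (left) and LX2 (right); filled points have an adjusted p under 0.05, the triangle is a lower bound and genes too low to test are marked. CXCL8 stood at 0.54 in HCCLM3 and at -2.46 in LX2, and CXCL2 was higher in both lines (2.07 and 0.79).

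The low levels in LX2 were set beside the partner line. To mark the partner, genes were taken that reached 20 FPKM in the partner grown alone while staying below 0.1 FPKM in the line when it was alone, which gave 57 genes for LX2 and 41 for HCCLM3. Levels in the 2 lines come from separate tables, so these ratios describe only. CXCL5 is among the 57 genes, and its level in the 3 libraries of LX2 with HCCLM3 equalled 1.29%, 1.69% and 1.52% of its mean in HCCLM3 with LX2. For the other 56 genes the median was 0.548% and the highest 4.31%, and CXCL5 was sixth from the top of the 57. Measured against HCCLM3 alone, the rise was 3.12% and the highest of the 57, with a median of 0.558% and a maximum of 2.43% among the others. The rises of CXCL1, CX3CL1 and CCL20 in LX2 were 0.872% to 2.17% of the level in HCCLM3 with LX2 and that of CXCL3 3.46%, also within the range of the set, while those of CXCL16 (5.63%) and CXCL2 (81.7%) lay above the whole set. Against the level in HCCLM3 alone, the rises of CXCL1, CX3CL1, CCL20 and CXCL3 were 4.79%, 5.15%, 4.58% and 13.3%, each above every gene of the set. How much of the CXCL5 counted in LX2 came from HCCLM3 RNA was not tested.

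In HCCLM3 the same measure gave other values. The 41 genes of LX2 rose by a median of 0.155% of their level in LX2 with HCCLM3, and 95% of them by at most 0.906%. CXCL2 rose in HCCLM3 by 3.03 FPKM, which is 42.0% of its level in LX2 with HCCLM3, and CXCL8 by 1.05 FPKM, which is 196% of it. CXCL5 rose by 29.6 FPKM, where LX2 with HCCLM3 held 0.856 FPKM.

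**Figure D3:**
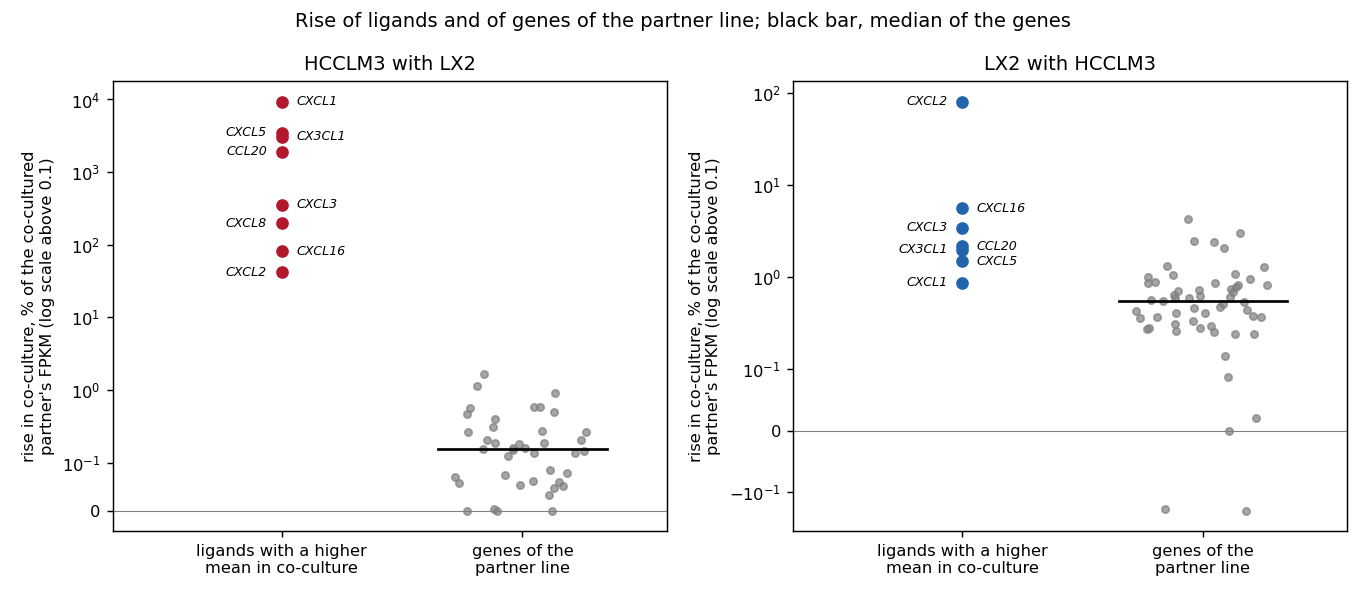
Gain with co-culture as a share (percent) of FPKM in the co-cultured partner line, on a log axis (linear below 0.1), for ligands with a higher mean in co-culture (coloured) and for genes that mark the partner line (grey, black bar at their median), in HCCLM3 with LX2 (left) and LX2 with HCCLM3 (right). In HCCLM3 every such ligand lay at 42.0% or above, while in LX2 CXCL1, CXCL5, CX3CL1 and CCL20 lay at 0.872% to 2.17%, inside the range of the grey points.

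The change with co-culture was compared between the lines in 1 fit over all 12 libraries, as the log2 fold change in HCCLM3 less the log2 fold change in LX2. Of the 10 ligands, 5 had a tested change in each line. Of these, 3 differed between the lines (2 with a higher change in HCCLM3, 1 with a lower). Of all 21959 genes in this fit 20.7% were called, 9.39% as higher and 11.3% as lower. That set is larger than those tested in HCCLM3 (18045) and LX2 (19671), so it includes genes without a tested change in each line. Over all genes, TMM gave 2063 higher and 2483 lower, library totals 2989 and 1588, limma on log2(FPKM + 1) 3787 and 2327 and limma on log2(FPKM + 0.1) 3491 and 1977. CXCL8 differed by 2.97 (SE 0.26; edgeR adjusted p = 2.03e-05), being higher with co-culture in HCCLM3 and lower in LX2. CXCL2 was higher with co-culture in both lines, by 1.25 more in HCCLM3 on the log2 scale (SE 0.24; edgeR adjusted p = 0.00402).

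For CXCL5 the fold was larger in LX2, where it started from no count, and the rise in FPKM was larger in HCCLM3. The difference of the log2 ratios was -6.26 or lower, and with limma on log2(FPKM + 1) the sign turned (0.14, limma adjusted p = 0.352). CXCL3 and CXCL16 did not pass, with differences of 1.48 (SE 0.51; edgeR adjusted p = 0.0665) and -0.22 (SE 0.17; edgeR adjusted p = 0.407). CXCL3 passed with DESeq2 (adjusted p = 0.0260), on library totals (edgeR adjusted p = 0.0382), with limma on log2(FPKM + 1) (limma adjusted p = 0.00353), with a replicate block (edgeR adjusted p = 0.0489) and without HCCLM3 alone replicate 1 (edgeR adjusted p = 0.00785).

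The order of the ligands differed between the lines as well. In HCCLM3 with LX2 the order ran CXCL5, CXCL16, CXCL2, CXCL8 and CXCL3, each range clear of the next, followed by CCL20 and CXCL1, where the ranges of CXCL3, CCL20 and CXCL1 overlapped in turn. In HCCLM3 alone CXCL5, CXCL16 and CXCL8 led with ranges clear of each other, and CCL20, CXCL2, CXCL3 and CXCL1 followed with overlapping neighbours. In LX2 with HCCLM3 the order ran CXCL2, CXCL16, CXCL5, CXCL8 and CXCL3, each clear of the next, with the other 5 at 0.0498 FPKM or lower. In LX2 alone CXCL2 led, CXCL8 and CXCL16 overlapped, and CCL2, CXCL10 and CXCL3 followed with overlapping neighbours.

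Along chromosome 4 the called ligands did not include every gene of the cluster. CXCL5, CXCL3 and CXCL2 are neighbours on the minus strand, CXCL3 lying 37.9 kb beyond CXCL5 and CXCL2 58.2 kb beyond CXCL3. Beside CXCL5, the platelet ligand genes PPBP and PF4 held 4 and 241 counts over HCCLM3 with LX2 and 0 and 162 counts over HCCLM3 alone, and the change of PF4 did not pass (log2 fold change 0.53, edgeR adjusted p = 0.366). CXCL6, an ELR-positive ligand next to CXCL8 in this list, had 4, 13 and 19 counts in HCCLM3 with LX2, against 0, 0 and 19 counts in HCCLM3 alone. In the second group of genes, CXCL11, a CXCR3 ligand 10.2 kb from CXCL10, had 23, 4 and 8 counts in LX2 with HCCLM3, against 38, 35 and 35 counts in LX2 alone (log2 fold change -1.70, edgeR adjusted p = 0.0921), and CXCL9, CXCL10 and CXCL11 had no count in HCCLM3.

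**Figure D4:**
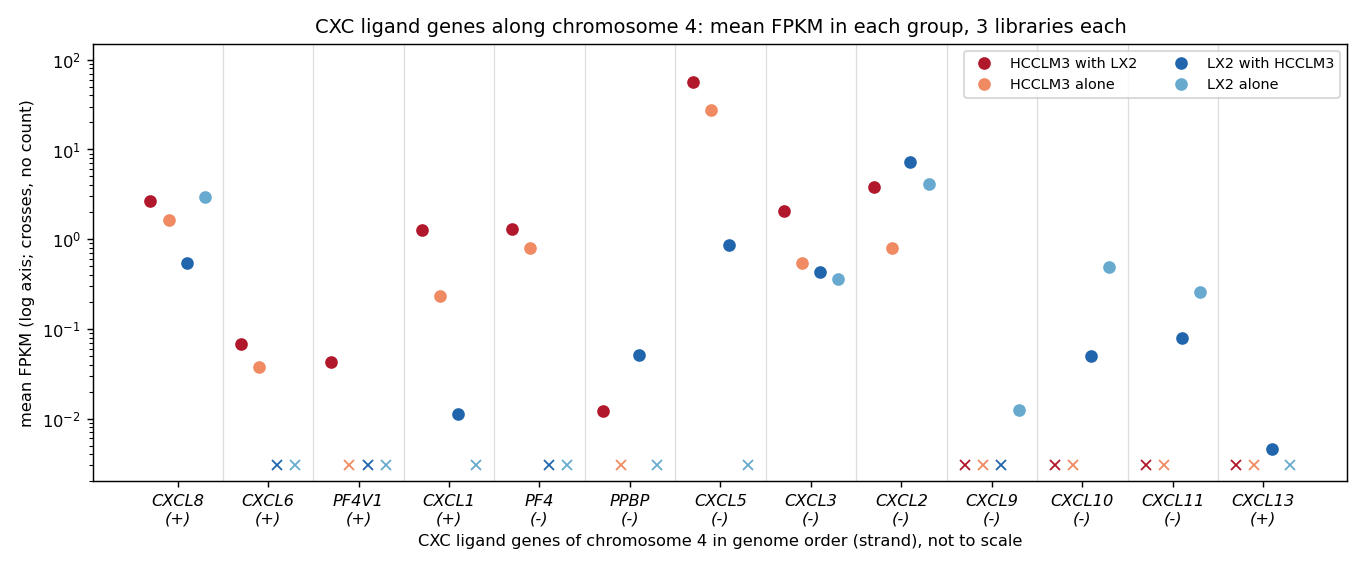
Mean FPKM (log axis, n = 3) of the CXC ligand genes of chromosome 4 in genome order, not to scale, in HCCLM3 with LX2, HCCLM3 alone, LX2 with HCCLM3 and LX2 alone; crosses mark groups with no count. CXCL5 stood highest in HCCLM3 with 57.0 FPKM with LX2 and 27.4 FPKM alone, and CXCL10 had no count in HCCLM3 and 0.0498 and 0.491 FPKM in LX2 with HCCLM3 and LX2 alone.

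The other genes of the chemokine system were read from fixed lists. Of 36 other ligands, 35 had a row in the tables, 7 were tested in HCCLM3, and 0 rose and 1 fell (edgeR; 10.1% and 11.6% of all tested genes; 0 higher and 1 lower at an unadjusted p under 0.05, 0 and 1 with DESeq2, 1 and 1 with limma). Over all 18045 genes tested in HCCLM3, 6496 had an unadjusted p under 0.05 in edgeR, DESeq2 called 4989 and limma 4210. The median log2 fold change of the 7 ligands was 0.52, against 0.033 over all tested genes. CCL24, an eosinophil attractant, fell to 2.21 ± 0.134 FPKM in HCCLM3 with LX2, against 3.95 ± 0.226 FPKM in HCCLM3 alone (log2 fold change -0.997, SE 0.14; edgeR adjusted p = 0.00482). CCL26, another CCR3 ligand, named after its values were seen, exceeded CXCL5 in level, with 123 ± 4.97 FPKM in HCCLM3 with LX2 and 103 ± 7.90 FPKM in HCCLM3 alone (log2 fold change 0.089; edgeR adjusted p = 0.525). In LX2, 3 other ligands were tested and 0 passed (edgeR), where 15.4% of all tested genes were called higher and 16.6% lower. At an unadjusted p under 0.05, with DESeq2 and with limma, 0 of these ligands were higher and 1 lower. Over all 19671 genes tested in LX2, 8267 had an unadjusted p under 0.05 in edgeR. DESeq2 called 3508 of all genes higher and 3627 lower, and limma 3341 and 2908.

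Receptors of the 10 ligands had few or no counts in either line. CXCR2 had 0, 4 and 0 counts in HCCLM3 with LX2 and none in the other 3 groups, CXCR1 and CCR6 had none in any group, and CXCR3 had 12, 0 and 0 counts in HCCLM3 with LX2 and none elsewhere. CCR2 had 8, 8 and 4 counts in LX2 with HCCLM3, against 10, 0 and 8 counts in LX2 alone, and none in HCCLM3. CXCR6, the receptor of CXCL16, had 12, 8 and 9 counts in HCCLM3 with LX2, against 0, 31 and 17 counts in HCCLM3 alone, and 12, 16 and 12 counts in LX2 with HCCLM3, against 23, 12 and 8 counts in LX2 alone. CX3CR1 had none in HCCLM3 with LX2 and 4, 0 and 4 counts in HCCLM3 alone, and 12, 0 and 4 counts in LX2 with HCCLM3 and 8, 12 and 18 counts in LX2 alone. Of 23 receptors, 9 were tested in HCCLM3 and 0 passed (edgeR), where 10.1% of all tested genes were called higher and 11.6% lower. At an unadjusted p under 0.05 and with DESeq2, 2 were higher and 0 lower, and with limma 1 and 0. Over all 18045 genes tested in HCCLM3, these 3 ways gave 6496, 4989 and 4210 in either direction. The median log2 fold change of the 9 receptors was 0.47, against 0.033 over all tested genes.

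In LX2, 9 receptors were tested and 0 rose and 2 fell (edgeR; 15.4% and 16.6% of all tested genes; 0 higher and 3 lower at an unadjusted p under 0.05, 0 and 2 with DESeq2, 1 and 2 with limma), with a median of -0.21, against 0.015 over all tested genes. Over all 19671 genes tested in LX2, 8267 had an unadjusted p under 0.05 in edgeR, DESeq2 called 7135 and limma 6249. CXCR4, the receptor of CXCL12, stood at 134 ± 0.971 FPKM in LX2 with HCCLM3 and 162 ± 1.91 FPKM in LX2 alone (log2 fold change -0.30, SE 0.022; edgeR adjusted p = 0.000164). ACKR3, a scavenger of CXCL12, fell to 4.24 ± 0.208 FPKM in LX2 with HCCLM3, against 6.08 ± 0.607 FPKM in LX2 alone (log2 fold change -0.55; edgeR adjusted p = 0.00750). CXCL12 itself had no count in LX2, and 0, 4 and 8 counts in HCCLM3 with LX2, against 0 in each library of HCCLM3 alone.

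Of the enzymes that shed or trim chemokines, 8 were tested in HCCLM3, of which 4 were called higher (MMP9, MMP14, CTSG and ELANE) and 1 lower (edgeR), where 10.1% of all tested genes were called higher and 11.6% lower. MMP9, CTSG and ELANE had no count in HCCLM3 alone and passed the filter only through co-culture, so that they were higher is in part a property of the filter. ADAM10, ADAM17 and MMP2 did not pass (edgeR adjusted p of 0.263 to 0.374). DPP4, which clips the start of several ligands including CXCL10, fell to 7.29 ± 0.525 FPKM in HCCLM3 with LX2, against 12.5 ± 0.430 FPKM in HCCLM3 alone (log2 fold change -0.94; edgeR adjusted p = 0.000940). MMP14, a membrane-bound metalloproteinase, stood at 14.7 ± 1.23 FPKM in HCCLM3 with LX2 and 5.92 ± 0.108 FPKM in HCCLM3 alone (log2 fold change 1.14; edgeR adjusted p = 0.000716). In LX2, 1 of 5 was called higher (MMP14) and 3 fell (ADAM10, ADAM17 and MMP2; edgeR), where 15.4% of all tested genes were called higher and 16.6% lower. With limma on log2(FPKM + 1), 1 was called higher and 2 lower, against 3341 and 2908 over all genes. MMP14 had 68, 115 and 71 counts in LX2 with HCCLM3, against 0, 0 and 4 counts in LX2 alone, and passed the filter only through co-culture, at 0.232 FPKM, where HCCLM3 with LX2 held 14.7 FPKM. ADAM10 and ADAM17, which shed CX3CL1 and CXCL16, had log2 fold changes of -0.15 and -0.37 (edgeR adjusted p = 0.0214 and 0.0144), and MMP2, which trims CCL7 and CXCL12, one of -2.17 (edgeR adjusted p = 0.000270).

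Among inducing cytokines, their receptors and NF-kB factors, 8 of 24 tested genes rose in HCCLM3 and 2 fell (edgeR; 10.1% and 11.6% of all tested genes), with a median log2 fold change of 0.50, against 0.033 over all tested genes. CEBPD and CEBPB, transcription factors that act with NF-kB on ligand promoters, had log2 fold changes of 1.46 and 0.61 (edgeR adjusted p = 0.00122 and 0.00453). ZC3H12A, an RNase that degrades cytokine transcripts, had one of 1.16, and TNFAIP3, an inhibitor of NF-kB signalling that NF-kB itself induces, one of 1.09 (edgeR adjusted p = 0.00122 and 0.00875). IL1B had 123, 181 and 120 counts in HCCLM3 with LX2, against 87, 155 and 116 counts in HCCLM3 alone, with overlapping groups, and TNF had none in HCCLM3.

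In LX2, 5 of 23 tested genes of that list rose and 7 fell (edgeR; 15.4% and 16.6% of all tested genes), with a median of -0.016, against 0.015 over all tested genes. NFKBIA, the NF-kB inhibitor that NF-kB induces, fell to 9.28 ± 1.08 FPKM in LX2 with HCCLM3, against 49.8 ± 2.77 FPKM in LX2 alone (log2 fold change -2.45, SE 0.095; edgeR adjusted p = 1.24e-05). BIRC3 and NFKBIE, further NF-kB targets, had log2 fold changes of -1.63 and -1.08 (edgeR adjusted p = 1.49e-05 and 0.000124). TNFAIP3 went the other way, with 18.5 ± 0.110 FPKM in LX2 with HCCLM3 and 7.68 ± 0.436 FPKM in LX2 alone (log2 fold change 1.24; edgeR adjusted p = 1.43e-05).

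Of 13 genes of the interferon pathways that induce CXCL10, 10 were tested in LX2, and 1 rose (IFNGR1) and 5 fell (edgeR; 15.4% and 16.6% of all tested genes). Their median log2 fold change was -0.20, against 0.015 over all tested genes. IRF7 and IRF1, transcription factors of the interferon response, had log2 fold changes of -1.57 and -0.54 (edgeR adjusted p = 0.000375 and 0.00512). In HCCLM3, 2 of 10 rose and 0 fell (edgeR; 10.1% and 11.6% of all tested genes; 6 higher and 1 lower at an unadjusted p under 0.05 and with DESeq2, 3 and 0 with limma), namely IFNGR1 and IFNGR2, the chains of the interferon gamma receptor (log2 fold change 0.84 and 0.30; edgeR adjusted p = 0.000847 and 0.0328). The median there was 0.58, against 0.033 over all tested genes. Over all 18045 genes tested in HCCLM3, 6496 had an unadjusted p under 0.05 in edgeR. DESeq2 called 2446 of all genes higher and 2543 lower, and limma 3104 and 1106. IFNB1, IFNG and IFNL1 had no count in HCCLM3.

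Some markers of blood cells were also higher in HCCLM3 with LX2 than in HCCLM3 alone. The 5 granulocyte precursor markers summed to 401, 436 and 365 counts in HCCLM3 with LX2 (5.48 to 6.39 CPM), against 0 in each library of HCCLM3 alone. The 6 red cell markers summed to 8961, 6468 and 7601 counts in HCCLM3 with LX2, against 0, 6 and 4 counts in HCCLM3 alone. The 11 leukocyte markers summed to 79.4 to 99.4 CPM in HCCLM3 with LX2 and 57.5 to 67.3 CPM in HCCLM3 alone, where LAPTM5, CSF1R, CD3E, S100A8 and S100A9 had no count. Most of this sum was CD68, whose change did not pass (log2 fold change 0.067; edgeR adjusted p = 0.731). Of 8 leukocyte markers tested, 6 were called higher and 0 lower (edgeR), where 10.1% of all tested genes were called higher and 11.6% lower. Of these 6, LAPTM5, S100A8 and S100A9 passed the filter only through co-culture. PTPRC, the pan-leukocyte marker CD45, had 23, 16 and 67 counts in HCCLM3 with LX2, against 34, 34 and 0 counts in HCCLM3 alone. MMP9, CTSG and ELANE, named above, are also made by granulocytes. Whether such cells were present, and their part in the rises of CXCL1, CXCL2, CXCL3, CXCL5 and CXCL8 in HCCLM3, was not tested. In LX2 the granulocyte precursor markers summed to 52, 86 and 47 counts in LX2 with HCCLM3 and 92, 127 and 86 counts in LX2 alone, the leukocyte markers to 2.31 to 3.53 CPM and 2.04 to 3.55 CPM, and the red cell markers to 4, 112 and 33 counts and 6, 15 and 11 counts. Endothelial markers summed to 70.0 to 76.5 CPM in HCCLM3 with LX2 and 138 to 167 CPM in HCCLM3 alone, and to 5.88 to 8.02 CPM in LX2 with HCCLM3 and 7.56 to 10.3 CPM in LX2 alone, with CDH5 at 0 throughout. In HCCLM3 most of the endothelial sum was ESAM, which fell (log2 fold change -1.43; edgeR adjusted p = 0.00122).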

How the data were processed

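Polyadenylated RNA was sequenced from both ends, per the labels' protocols. The submitters' processing notes name StringTie 1.3.0, HISAT2 2.0 and Bowtie 0.12.2 without their roles, and mm8, which is a mouse build. Identifiers in the tables are human: 58394 of 60612 were in GENCODE release 29, 90.5% of these with the same chromosome and start or end, so the deposited coordinates were taken as GRCh38. For every library the authors deposited raw counts beside FPKM, per the file headers, with a table for each line. Where the count was 0, the HCCLM3 table lists 0.0001 FPKM, which was read as 0. The sources used here do not give how FPKM was scaled (library sums were 313710 to 335480 in HCCLM3 and 266772 to 271937 in LX2), so levels across lines are a description.

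Counts were tested with edgeR 4.0.16 (R 4.3.3): filterByExpr (minimum count 10, minimum total 15), TMM, quasi-likelihood test, two-sided. SE is the absolute log2 fold change over the square root of F. Alternatives used DESeq2 1.42.0 and limma 3.58.1. Ligands without a tested change in each line were left out of the difference between lines. The promoter stretch was taken from the promoters after they were seen. From each list, the up to 4 called genes with the smallest p and at least 1 FPKM in a group are named per line. The ligands and lists were chosen with earlier results of these data known. Replicates of a group differed by more than counting noise (chi-square per degree of freedom 39.5 to 99.4). None of the windows of 100 bases in the longest GENCODE transcript of any ligand was met in another gene. Protein sequences were not used here. The values of 1 gene of the interferon list are not reported here. The procedure was tested on simulated data. Of 1.5-fold, 2-fold and 4-fold changes it recovered 5.8%, 39.1% and 83.9% in HCCLM3 and 25.4%, 72.6% and 93% in LX2. For the difference it recovered 5.17%, 30.3% and 69.7%. Far fewer genes were changed in the simulation than were called in the data. All simulated calls numbered 89 in HCCLM3, 138 in LX2 and 77 for the difference, against 3924, 6281 and 4546 in the data. The adjusted p depends on that number, so these shares do not carry over to the data. A change that did not pass is not shown to be absent. Exact binomial intervals (95%, SciPy 1.17.1) and the floor of 3 counts cover counting error only.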

Additional observations from a re-analysis of the deposited data

Results flagged for a closer look

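The change with co-culture differed between HCCLM3 and LX2 for 3 ligands, by the test of the difference itself. CXCL8 had a difference of 2.97 on the log2 scale, with 2.69 ± 0.158 and 1.64 ± 0.0935 FPKM in HCCLM3 with LX2 and HCCLM3 alone and 0.536 ± 0.126 and 2.93 ± 0.421 FPKM in LX2 with HCCLM3 and LX2 alone (SD, n = 3 each). CXCL2 had a difference of 1.25, with a higher level in co-culture in both lines. CXCL5 had a fitted difference of -9.35, which depends on the prior count because LX2 alone held no count, and whose bound from counts is -6.26.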

How the results depend on the processing

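The 5 calls in LX2 held under all settings, with 5 to 6 ligands called when single libraries were left out. In HCCLM3, 4 ligands were called, against 7 with DESeq2, and 2 to 4 when single libraries were left out, while CXCL2 and CXCL5 passed in each. The number was 2 without HCCLM3 alone replicate 2 and without HCCLM3 with LX2 replicate 1 or 2. All genes called in HCCLM3 numbered 3924, and 1918 to 2928 without single libraries, being 2264, 2522 and 1918 without HCCLM3 with LX2 replicate 1, 2 and 3 and 2574 without HCCLM3 alone replicate 3. With limma on log2(FPKM + 1) the difference between lines changed sign for CXCL5 (0.14) and CXCL16 (0.0091), neither passing. The pseudocount of 1 exceeds the level of CXCL5 in LX2, and for CXCL16 the cause was not tested.

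The labels do not say whether equal replicate numbers mark paired libraries. Deviations of equally numbered libraries correlated at 0.017 to 0.045 in HCCLM3, each best with its own number, and at -0.041 to 0.011 in LX2. With a replicate block 3315 genes were called in HCCLM3, 4795 in LX2 and 4439 for the difference. Of the ligands, 3 passed in HCCLM3 (CXCL8 did not, edgeR adjusted p = 0.0631), 5 in LX2 and 4 for the difference, with CXCL3 added. CXCL8 also missed in HCCLM3 with no filter on low counts (edgeR adjusted p = 0.0587). Ligands with fewer than 25 counts over a group carry wide counting intervals.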
